A study of Drosophila melanogaster with 6 samples.

Results

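The 8 genes described here, echinoid (ed), Neurotactin (Nrt), Fasciclin 2 (Fas2), Fasciclin 3 (Fas3), kin of irre (kirre), roughest (rst), Tenascin major (Ten-m) and frazzled (fra), encode cell-surface proteins by which Drosophila cells recognise and adhere to one another. They were taken from the deposited table by their CG identifiers, and all 8 were found among its 9073 listed genes. The tested libraries came from Oregon R wild-type embryos that had received dsRNA, double-stranded RNA that silences matching transcripts, for the pair-rule genes even-skipped (eve) and runt (run), each at 1 µg/µl, and the controls from Oregon R embryos injected with water. There were 3 libraries in each group, each from about 50 whole embryos. Eggs were collected over a window of 0 to 1 h at 25 °C, and embryos were injected before cells had formed. They were kept at 18 °C until shortly before gastrulation, when they were picked by hand by their stage. The series asks which genes the pair-rule transcription factors Eve and Runt control in the late blastoderm.

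Adhesion receptors of this kind sit in the plasma membrane with an extracellular part. It binds the same protein on the neighbouring cell, or a partner that lies there or is secreted. Several carry immunoglobulin domains, and many are better known from axon guidance, muscle fusion and the sorting of cells in the eye than from the blastoderm, where the first epithelium of the embryo forms as membranes grow between the nuclei. Ten-m was first described, under the name odd Oz, as a pair-rule gene, and surface proteins expressed in stripes are of interest because the trunk epithelium elongates soon afterwards by the oriented exchange of neighbours.

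Levels are given as normalised counts, the reads of a gene divided by a size factor of its library, and fold changes compare eve runt dsRNA with water as log2(normalised count + 1) with limma across all 9073 genes. Gene reads per library were 23234425 to 49364110 in the eve runt dsRNA group and 26488720 to 44461953 in the water group. The run transcript, one of the 2 targets, lay at 1975, 1922 and 1733 in eve runt dsRNA replicates 1, 2 and 3, against 3131, 2220 and 3557 in water replicates 1, 2 and 3. The eve transcript lay at 2922, 2727 and 2325 in eve runt dsRNA, against 2827, 1699 and 3075 in water, so that the groups overlapped for eve and not for run, and neither passed the limma test over all genes (adjusted p = 0.999 each). Directions below therefore refer to the libraries labelled eve runt dsRNA. Water replicate 2 stood apart from the other 5 libraries, with a score of 60.6 on a first principal component holding 54.7% of the variance, where the others scored from −27.7 to 5.61. The 5 measured genes of cellularisation, which define the stage, were detected in every library, with summed levels of 204911 to 327744 in eve runt dsRNA and 187173 to 249304 in water. The 12 measured maternally loaded RNAs summed to 110282 to 153865 in eve runt dsRNA and to 132478 to 207470 in water.

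None of the 8 receptor genes changed past the threshold. After eve runt dsRNA 6 of the 8 had a positive log2 fold change and 2 a negative one, with a median of 0.08 beside a median of −0.0015 over all genes, of which 49.5% were positive. By limma 0 of 8 had an adjusted p under 0.05, where 0.011% of all genes did (noc alone, a zinc-finger gene named for this count after its values were seen), and 0 of 8 had an unadjusted p under 0.05, where 2.27% of all genes did. Fitting the replicate number as a block left 0 genes called (noc adjusted p = 0.244 by limma), and noc also missed the threshold on leaving out any library but water replicate 2 (adjusted p between 0.053 and 0.21 by limma). For 0 of the 8 were all eve runt dsRNA libraries above, or all below, all water libraries, where 6.35% of all genes had no such overlap (2.99% higher and 3.36% lower in eve runt dsRNA). In whole embryos, fewer cells that express a gene and less RNA per cell cannot be told apart.

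**Figure D1:**
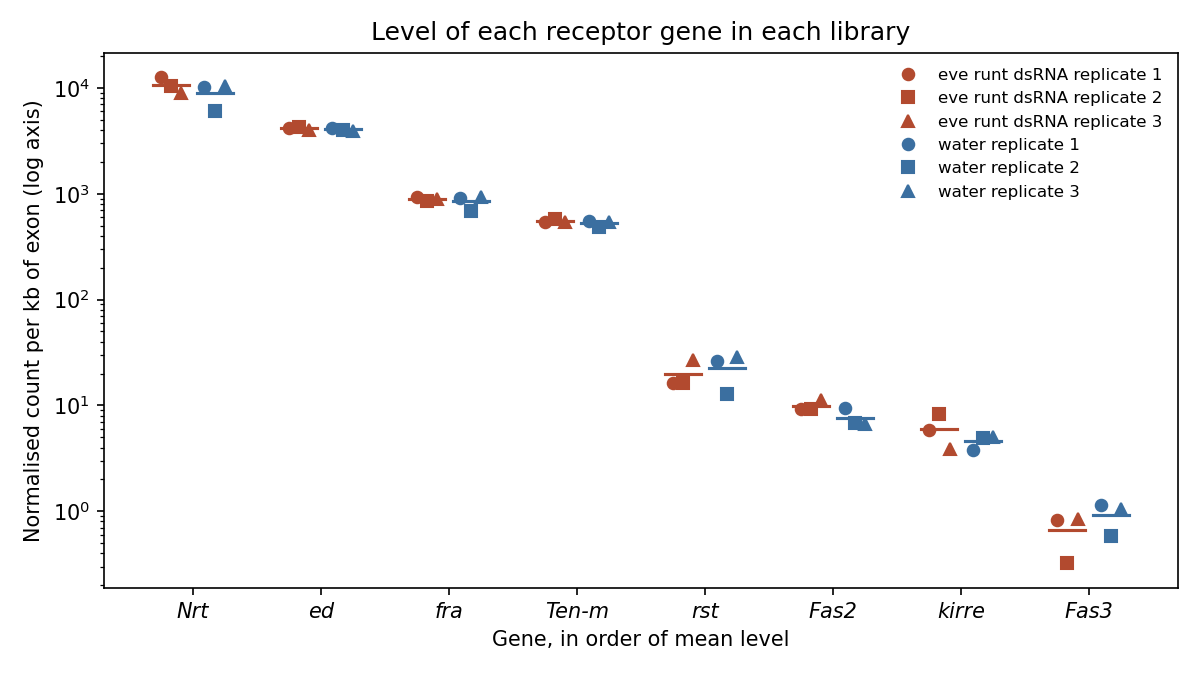
Normalised count per kb of exon (log axis) of the 8 genes in the 3 eve runt dsRNA libraries (red, left of each gene) and the 3 water libraries (blue, right); bars are group means. Nrt, ed, fra and Ten-m lie between 489 and 12620 per kb and the other 4 genes between 0.32 and 28.6 per kb, and the groups overlap for every gene.

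Per length, the levels of the 8 genes spanned a 12326-fold range and fell into 4 abundant and 4 scarce ones. On the scale of normalised counts per kb of annotated exon, averaged over the 6 libraries, the level was 9799 for Nrt, 4110 for ed, 871 for fra and 540 for Ten-m. It was 21.2 for rst, 8.81 for Fas2, 5.30 for kirre and 0.795 for Fas3. These levels lay at percentiles 97.2 for Nrt, 92.4 for ed, 67.2 for fra and 60.1 for Ten-m among the 8978 listed genes with an exon length, and at 24.6, 18.2, 13.9 and 1.69 for rst, Fas2, kirre and Fas3. Every listed gene had reads in at least 4 of the 6 libraries, so genes without reads are absent from this ranking. Neighbours in this order did not overlap over the 6 libraries except for Fas2 and kirre, whose ranges of 6.66 to 11.3 and 3.75 to 8.27 per kb did. The step from Ten-m down to rst was 25.4-fold, and the other steps were 1.61-fold to 6.67-fold. Together ed and Nrt made up 83.0% to 86.0% of the summed normalised counts of the 8 genes in eve runt dsRNA libraries and 82.6% to 84.2% in water libraries.

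Among the abundant genes, Nrt was the one that varied most between libraries. Neurotactin (CG9704; located at BDGP6 3L, 16766072 to 16777465, plus strand) is a transmembrane protein whose outer part resembles cholinesterases and binds the secreted protein Amalgam. Its normalised counts were 54026, 44575 and 38282 in eve runt dsRNA replicates 1, 2 and 3, against 43950, 26098 and 44766 in water replicates 1, 2 and 3. Eve runt dsRNA replicate 1 was the highest library and water replicate 2 the lowest, a 2.07-fold range, and the groups overlapped. The means were 45628 ± 7924 in eve runt dsRNA and 38271 ± 10550 in water (SD, n = 3 each), with a log2 fold change of 0.28 ± 0.23 (SE), an adjusted p = 0.999 by limma and a 95% interval of −0.27 to 0.83. Without water replicate 2 the log2 fold change was 0.03 ± 0.13. The replicate SD was 37.0 times the SD expected from counting reads alone in eve runt dsRNA and 54.8 times in water. In the annotation 935 bases of Nrt exon overlap exons of mus302 on the other strand, and without strand, reads from there cannot be assigned to 1 gene. A separate row of ambiguous reads held 0.72% to 0.75% of the listed reads. Whether reads of this overlap went there, and so were lost from Nrt, was not tested. Whether the counting used strand is not stated in the sources used here.

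The ed transcript was nearly flat over the 6 libraries. Echinoid (CG12676; located at BDGP6 2L, 4031377 to 4115749, plus strand) is an immunoglobulin-domain adhesion protein of adherens junctions that also dampens signalling by the EGF receptor. It had 26967, 27559 and 25738 normalised counts in eve runt dsRNA replicates 1, 2 and 3, against 27090, 25907 and 25160 in water replicates 1, 2 and 3. The highest library exceeded the lowest by 1.10-fold, and the SD of its log2 level over the 6 libraries was 0.05, at percentile 5.35 of all genes, where that of Nrt was 0.36, at percentile 63.8. The means were 26755 ± 929 in eve runt dsRNA and 26052 ± 973 in water (SD, n = 3 each), with a log2 fold change of 0.04 ± 0.05 (SE) and an adjusted p = 0.999 by limma. The 95% interval ran from −0.08 to 0.15, that is from 0.948-fold to 1.11-fold. Nrt per kb was 3.01, 2.43 and 2.23 times ed per kb in eve runt dsRNA replicates 1, 2 and 3, and 2.43, 1.51 and 2.67 times in water replicates 1, 2 and 3. An annotated antisense RNA (asRNA:CR44984) shares 199 bases with ed exons.

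Ten-m, the teneurin once counted among the pair-rule genes, was also steady. Teneurins are large transmembrane proteins that match cells across a contact. Ten-m (CG5723; located at BDGP6 3L, 22293044 to 22407863, minus strand) had 7076, 7570 and 7125 normalised counts in eve runt dsRNA replicates 1, 2 and 3, against 7216, 6408 and 7074 in water replicates 1, 2 and 3. Apart from the low value in water replicate 2 and the high one in eve runt dsRNA replicate 2, the libraries lay close together, and the groups overlapped. The means were 7257 ± 272 in eve runt dsRNA and 6899 ± 432 in water (SD, n = 3 each; log2 fold change 0.07 ± 0.07, SE; limma adjusted p = 0.999), with a 95% interval of 0.942-fold to 1.18-fold. A count per gene over whole embryos does not show where in the embryo a transcript lies, so a shift of stripes with no change in amount would not appear here. A long noncoding RNA on the same strand (lncRNA:CR45962) shares 656 bases with Ten-m exons.

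Frazzled, the fly orthologue of the netrin receptor DCC, was lowest in water replicate 2 and otherwise even. The gene fra (CG8581; located at BDGP6 2R, 12529053 to 12564184, plus strand) had 5847, 5375 and 5675 normalised counts in eve runt dsRNA replicates 1, 2 and 3, against 5820, 4358 and 5944 in water replicates 1, 2 and 3. Water replicate 2 lay at 0.741 of the mean of the other water libraries, and the 5 remaining libraries lay between 5375 and 5944. The means were 5633 ± 239 in eve runt dsRNA and 5374 ± 882 in water (SD, n = 3 each), with a log2 fold change of 0.08 ± 0.13 (SE), an adjusted p = 0.999 by limma and a 95% interval of −0.22 to 0.38. Without water replicate 2 the value turned to −0.06 ± 0.07.

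**Figure D2:**
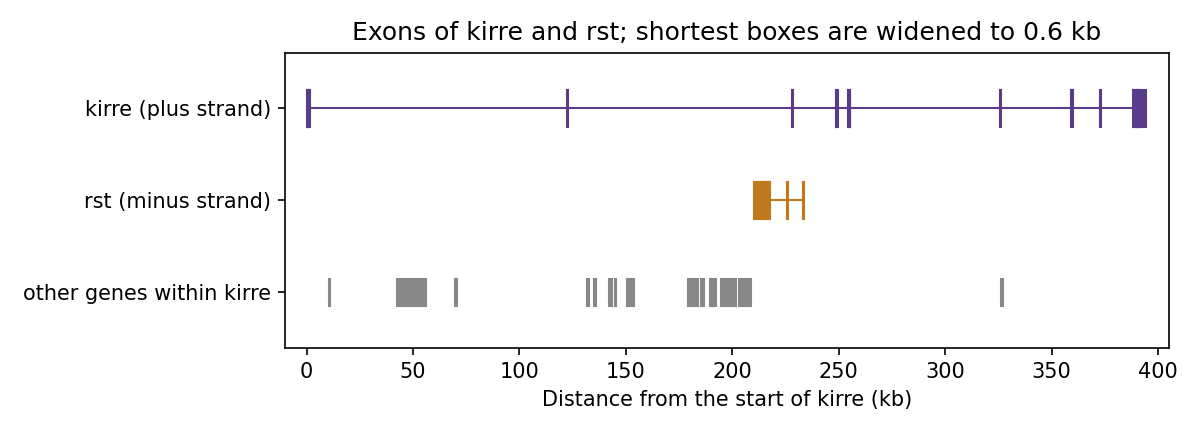
Annotated exons of kirre (purple) and rst (orange) and the other genes lying wholly within kirre (grey), by distance from the start of kirre in kb. The rst gene lies from 210 to 233 kb inside the 394 kb span of kirre, on the opposite strand.

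The paralogues kirre and rst, which share a locus as well as a function, were scarce and did not follow each other. Kirre (also called Dumbfounded) and Roughest are immunoglobulin-domain receptors of muscle founder cells that draw in fusing myoblasts, and in the eye they sort the cells of the lattice by binding Hibris and Sticks and stones. In the BDGP6 annotation kirre (CG3653; chromosome X, 2740384 to 3134532, plus strand) spans 394 kb, of which 1.99% is exon, and holds 22 whole genes, among them rst (CG4125; chromosome X, 2950399 to 2973834, minus strand). Its span is the longest of the 8, and 1 of its 18 merged exons lies inside rst, but no exon of kirre overlaps an exon of another annotated gene.

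The kirre transcript stood at 46.4, 64.9 and 30.7 normalised counts in eve runt dsRNA replicates 1, 2 and 3, against 29.5, 38.6 and 39.7 in water replicates 1, 2 and 3. Eve runt dsRNA replicates 1 and 2 were above all water libraries and replicate 3 was not. These values rest on 68, 61 and 22 reads in eve runt dsRNA and 39, 30 and 40 in water. The means were 47.3 ± 17.1 in eve runt dsRNA and 35.9 ± 5.62 in water (SD, n = 3 each), with a log2 fold change of 0.34 ± 0.33 (SE), an adjusted p = 0.999 by limma and a 95% interval of −0.45 to 1.12. The replicate SD was 2.48 times the counting SD in eve runt dsRNA and 0.922 times in water. The log2 fold change was 0.08 ± 0.34 without eve runt dsRNA replicate 2, the highest library, and 0.20 ± 0.39 without water replicate 1. It was 0.74 ± 0.25 when libraries were weighted by quality (limma adjusted p = 0.343). Without eve runt dsRNA replicate 3 it was 0.61 ± 0.29, with no overlap between groups for kirre, as for 29.4% of all genes in that smaller set of libraries.

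The rst transcript stood at 102.3, 102.2 and 169 normalised counts in eve runt dsRNA replicates 1, 2 and 3, against 164, 79.8 and 179 in water replicates 1, 2 and 3. Eve runt dsRNA replicates 1 and 2 and water replicate 2 were the lower libraries and eve runt dsRNA replicate 3 and water replicates 1 and 3 the higher ones, so the groups overlapped. The means were 124 ± 38.5 in eve runt dsRNA and 141 ± 53.4 in water (SD, n = 3 each), with a log2 fold change of −0.13 ± 0.38 (SE), an adjusted p = 0.999 by limma and a 95% interval of −1.03 to 0.76. The replicate SD was 3.28 times the counting SD in eve runt dsRNA and 4.60 times in water. Its sign depended on single water libraries: the log2 fold change was 0.02 ± 0.44 without water replicate 1, −0.50 ± 0.26 without water replicate 2 and 0.08 ± 0.41 without water replicate 3 (limma adjusted p between 0.891 and 0.997). It was −0.57 ± 0.20 when libraries were weighted by quality (limma adjusted p = 0.343).

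**Figure D3:**
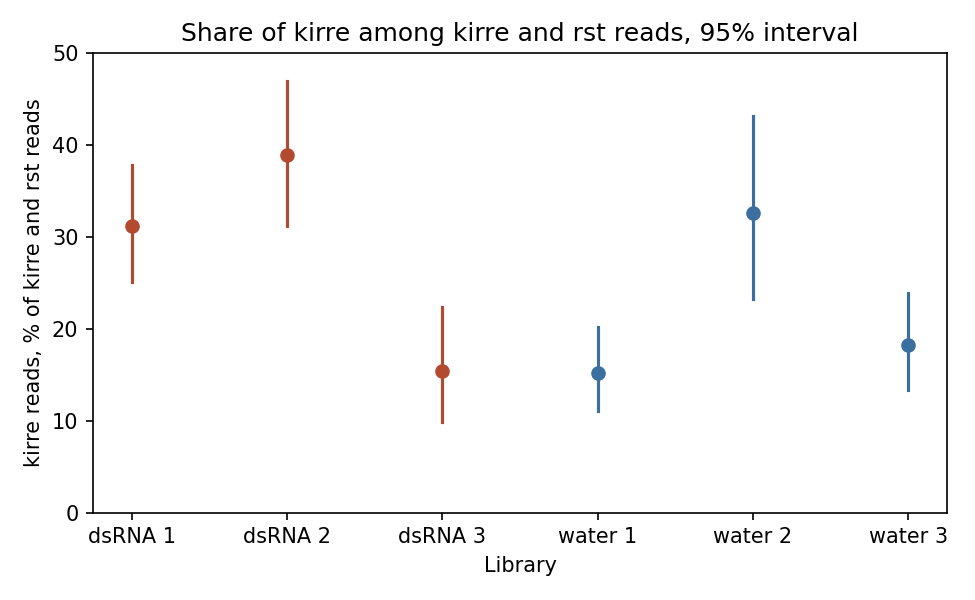
Reads of kirre as a percentage of the reads of kirre and rst together in each library, with 95% Clopper-Pearson intervals for counting error. Eve runt dsRNA replicates 1 and 2 and water replicate 2 lie between 31.2% and 38.9%, and the other 3 libraries between 15.2% and 18.2%.

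Within the pair, the share of kirre among kirre and rst reads differed between libraries of the same group by more than counting error. It was 31.2% (95% Clopper-Pearson interval 25.1% to 37.8%), 38.9% (31.2% to 46.9%) and 15.4% (9.90% to 22.4%) in eve runt dsRNA replicates 1, 2 and 3. In water replicates 1, 2 and 3 it was 15.2% (11.1% to 20.2%), 32.6% (23.2% to 43.2%) and 18.2% (13.3% to 23.9%). The group means were 28.5% ± 12.0 in eve runt dsRNA and 22.0% ± 9.30 in water (SD, n = 3 each) and overlapped, and with 3 libraries a group the smallest two-sided p of an exact permutation test is 0.1.

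The fasciclins were scarce at this stage. Fasciclin 2, an immunoglobulin-family protein related to vertebrate NCAM that binds itself on axons and epithelial cells, is encoded by Fas2 (CG3665; located at BDGP6 X, 4132887 to 4206093, minus strand). It had 67.5, 68.1 and 82.4 normalised counts in eve runt dsRNA replicates 1, 2 and 3, against 69.5, 50.2 and 48.7 in water replicates 1, 2 and 3. Water replicate 1 was slightly above eve runt dsRNA replicates 1 and 2, and the other water libraries were below all of eve runt dsRNA. The means were 72.7 ± 8.43 in eve runt dsRNA and 56.1 ± 11.6 in water (SD, n = 3 each), with a log2 fold change of 0.38 ± 0.24 (SE), an adjusted p = 0.999 by limma and a 95% interval of −0.18 to 0.94. The replicate SD was 0.955 times the counting SD in eve runt dsRNA and 1.57 times in water, at 39 to 99 reads per library. The log2 fold change was 0.11 ± 0.18 with library quality weights and 0.29 without eve runt dsRNA replicate 3 or without water replicate 3. Without water replicate 1 Fas2 stood at 0.54 ± 0.26 with no overlap between groups, as did Ten-m, where 14.4% of all genes had none.

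Fasciclin 3, a self-binding immunoglobulin-family protein of epithelia and of some motor neurons and their targets, was close to the limit of detection. Fas3 (CG5803; located at BDGP6 2L, 18320102 to 18393441, plus strand) had 8, 2 and 4 reads in eve runt dsRNA replicates 1, 2 and 3, against 10, 3 and 7 in water replicates 1, 2 and 3. As normalised counts these were 5.45, 2.13 and 5.59 in eve runt dsRNA, against 7.56, 3.86 and 6.95 in water. The exact Poisson 95% intervals of every library overlapped, for example at 0.258 to 7.69 normalised counts in eve runt dsRNA replicate 2 and 3.62 to 13.9 in water replicate 1. The log2 fold change was −0.44 ± 0.46 (SE; limma adjusted p = 0.999) with a 95% interval of −1.54 to 0.67, so a difference was not detectable at this depth. It was −0.92 ± 0.38 when libraries were weighted by quality (limma adjusted p = 0.364) and −0.09 ± 0.46 without eve runt dsRNA replicate 2. Fas3 was lower in eve runt dsRNA in all 3 same-numbered pairs of libraries (log2 differences of −0.41, −0.64 and −0.27), where 14.4% of all genes were. None of the 8 was higher in all 3 pairs, where 10.7% of all genes were.

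**Figure D4:**
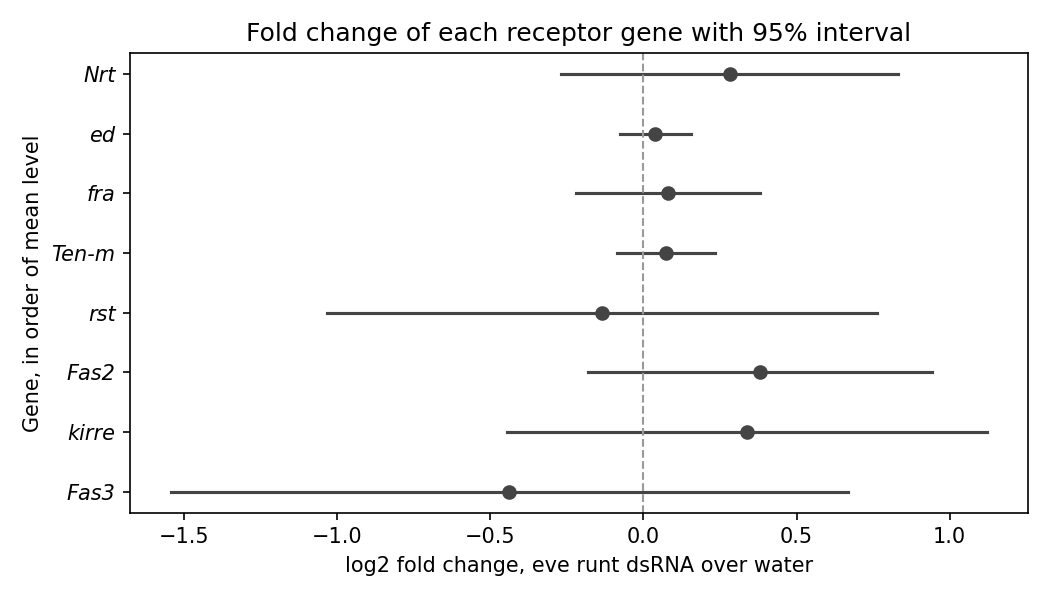
Log2 fold change of each gene, eve runt dsRNA over water, with its limma 95% interval, in order of mean level from the top. Every interval includes 0, and the intervals are narrowest for ed and Ten-m and widest for Fas3.

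Water replicate 2, the library that stood apart, was low for some of the members and not for others. It was the lowest of all 6 libraries for 4 of the 8 genes (Nrt, rst, Ten-m and fra), where this held for 31.2% of all genes, and it lay below both other water libraries for 5 of the 8, with Fas3, where this held for 42.7%; both counts are over 8 genes and are given as a description. Relative to the mean of the other water libraries it stood at 0.466 for rst, 0.532 for Fas3, 0.588 for Nrt, 0.741 for fra, 0.849 for Fas2, 0.897 for Ten-m, 0.992 for ed and 1.12 for kirre. In the same library the 12 measured segment-polarity and homeotic genes, which come on at and after this stage, summed to 3093 against 8442 and 11198 in water replicates 1 and 3. Their sums in eve runt dsRNA were 7357 to 9805. Most of each water sum was ptc, at 7085, 2557 and 9323 in water replicates 1, 2 and 3, but 11 of the 12 genes were at their lowest of the 6 libraries in water replicate 2. The cellularisation list was also lowest there, at 187173 against 246158 and 249304 in water replicates 1 and 3, with 4 of its 5 genes at their lowest of the 6 libraries and nullo not. For all 12 measured maternally loaded RNAs water replicate 2 was the highest of the water libraries, with a sum of 207470 against 132478 and 133035 in water replicates 1 and 3. The mesoderm list summed to 10958 to 13609 in eve runt dsRNA and 8068 to 12982 in water, the dorsal ectoderm list to 7756 to 9420 in eve runt dsRNA and 6507 to 8661 in water, and the neuroectoderm list to 13770 to 17539 in eve runt dsRNA and 9581 to 15512 in water. These 3 sums were lowest in water replicate 2, but the mesoderm and neuroectoderm genes went both ways there: 4 of 6 mesoderm genes were at their lowest of the 6 libraries and 2 (Mef2 and zfh1) at their highest, and 5 of 8 neuroectoderm genes were at their lowest and 3 (l(1)sc, ac and sc) at their highest. The 3 measured pole-cell genes summed to 4183 to 6101 in eve runt dsRNA and 5317 to 8988 in water, highest in water replicate 2. Of these, pgc and gcl are also counted among the maternally loaded RNAs, so the 2 lists are not separate. No gene of the 7 marker lists was without reads in any library, and the part of these differences in the receptor values was not tested.

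**Figure D5:**
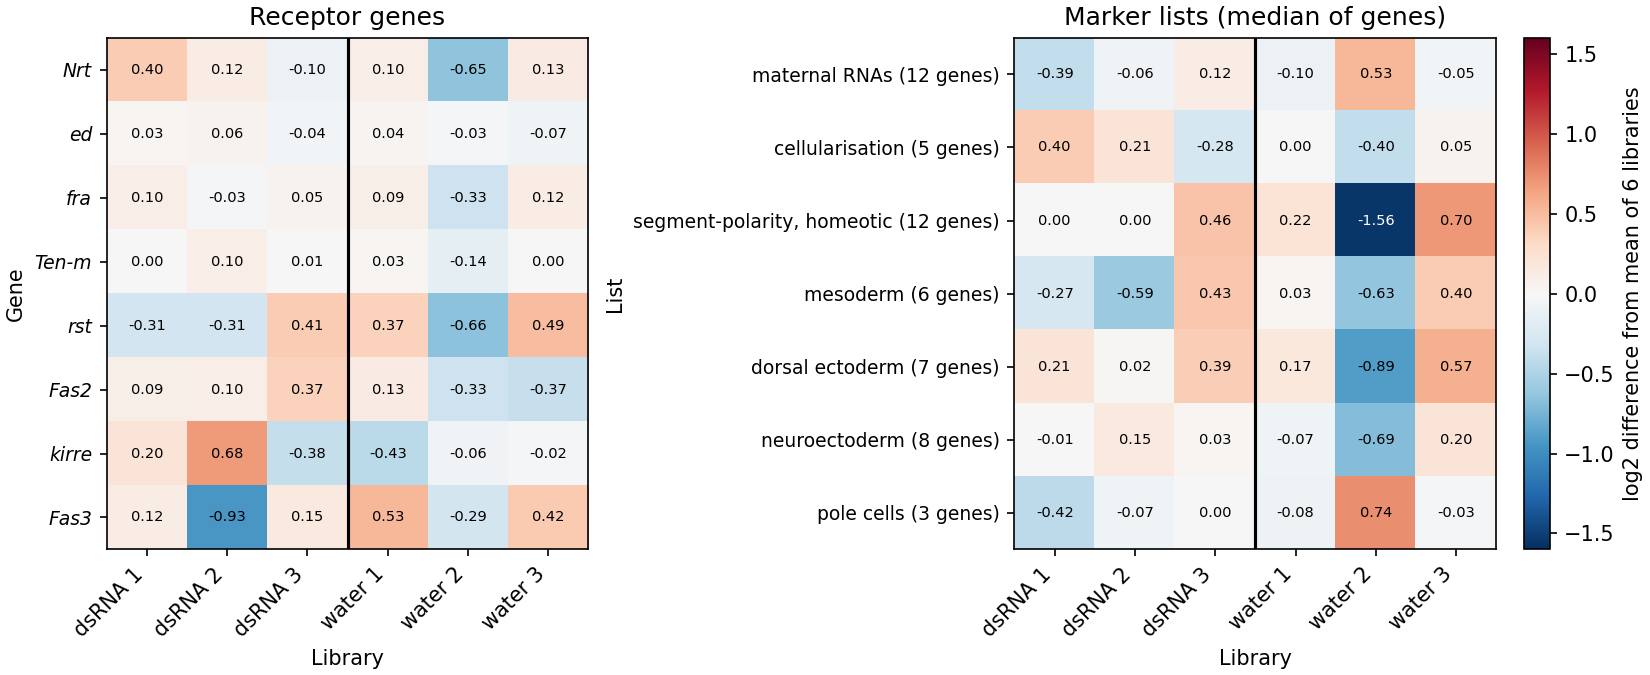
Deviation (log2) of each library from the 6-library mean for the 8 receptor genes (left) and, as the median of their genes, for the 7 marker lists (right), in eve runt dsRNA and then water libraries. Water replicate 2 is at −0.65 for Nrt and −0.66 for rst, beside −1.56 for the segment-polarity and homeotic list and 0.53 for the maternal list.

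As mean-centred log2 profiles over the 6 libraries, the most alike members were ed and Ten-m, with a root mean square difference of 0.061, followed by Ten-m and fra at 0.114. The least alike were Fas3 and kirre at 0.819 and kirre and rst at 0.722. Among 6223 other genes with a mean of at least 100 normalised counts, the nearest profile to Nrt was that of Gpo1, a glycerol-3-phosphate dehydrogenase, at 0.037. The nearest to rst was Dna2, a nuclease-helicase of DNA replication, at 0.082. For ed it was mRpL4, a mitochondrial ribosomal protein, at 0.011, for Ten-m botv at 0.020 and for fra CG13096 at 0.023. For the scarce genes other than rst the nearest profiles were farther off, at 0.174 for Fas2 (Con, which encodes the adhesion protein Connectin), 0.227 for kirre (Argk2) and 0.227 for Fas3 (Vps16A). Connectin transcripts were at 323, 340 and 331 normalised counts in eve runt dsRNA replicates 1, 2 and 3, against 268, 269 and 246 in water replicates 1, 2 and 3. These values did not overlap between groups, as for 6.35% of all genes. Con was picked for its nearness to the Fas2 profile, so its difference follows in part from that choice.

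The known partners and paralogues of the 8 receptors did not change past the threshold either. All 8 listed were measured, with 4 positive and 4 negative log2 fold changes (median 0.10, against −0.25 when libraries were weighted by quality and −0.34 on leaving out water replicate 2), 0 called and 0 with an unadjusted p under 0.05. For 0 of them was there no overlap between groups, where 6.35% of all genes had none. Amalgam (Ama), the ligand of Neurotactin, had 3167, 2432 and 3486 normalised counts in eve runt dsRNA replicates 1, 2 and 3, against 3462, 887 and 4234 in water replicates 1, 2 and 3 (log2 fold change 0.35 ± 0.57, SE; limma adjusted p = 0.999). The netrin gene NetA, which encodes a ligand of Frazzled, had 458, 391 and 828 in eve runt dsRNA, against 603, 118 and 657 in water (log2 fold change 0.55 ± 0.68, SE; limma adjusted p = 0.999). Both ligand genes were lowest in water replicate 2, as were Nrt and fra. The same held for 5 of the 8 genes of this list, both ligand genes included, and for 31.2% of all genes. Of the myoblast partners, named after their values were seen, hbs had 102, 108 and 75.4 in eve runt dsRNA, against 109.6, 19.3 and 119 in water, while sns did not exceed 3.86 in any library. Fred, the paralogue of ed, did not exceed 5.15, against at least 25160 for ed itself. These are normalised counts that are not corrected for length.

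Other surface proteins gave the same counts of calls. Of 11 measured immunoglobulin-family proteins 8 had a positive log2 fold change (median 0.03), 0 were called, and 1 had no overlap between groups, sidekick (sdk), a protein of the tricellular contacts. Its normalised counts were 20346, 21330 and 19997 in eve runt dsRNA, against 19972, 19552 and 18960 in water (log2 fold change 0.08 ± 0.05, SE; limma adjusted p = 0.999). Lachesin (Lac), of the septate junctions, lay at 15929 to 19005 in eve runt dsRNA and at 9464 to 19790 in water. Of 6 measured integrin subunits 5 were positive and 0 were called, with a median of 0.12. It was −0.52 when libraries were weighted by quality, −0.55 on leaving out water replicate 2 and −0.08 on leaving out eve runt dsRNA replicate 3. The β subunit mys lay at 10399 to 11314 in eve runt dsRNA and 9855 to 11340 in water, and the α subunit mew at 235 to 674 in eve runt dsRNA and 79.8 to 685 in water.

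Of 13 measured guidance ligands and receptors 10 were positive (median 0.06) and 0 were called. The plexin receptor gene PlexA lay at 33409 to 35445 in eve runt dsRNA and 32252 to 34353 in water, and the semaphorin gene Sema2a at 20163 to 21173 in eve runt dsRNA and 18782 to 21157 in water. The 1 gene of this list without overlap, where 6.35% of all genes had none, was PlexB. It had 12060, 12088 and 11768 normalised counts in eve runt dsRNA, against 11347, 10844 and 11579 in water (log2 fold change 0.09 ± 0.05, SE; limma adjusted p = 0.999). Among 11 cytoplasmic partners of such receptors 4 were positive and 7 negative (median −0.02) and 0 were called. Canoe (cno), which binds Echinoid at the junction, lay at 32003 to 35385 in eve runt dsRNA and 30114 to 35658 in water, and the tyrosine kinase gene Abl at 19021 to 22004 in eve runt dsRNA and 17788 to 21977 in water. The scaffold gene dlg1, which clusters Fasciclin 2 at synapses, was the 1 gene without overlap, where 6.35% of all genes had none. It was lower in eve runt dsRNA at 10871, 10941 and 10714 against 12013, 11007 and 11453 in water (log2 fold change −0.08 ± 0.05, SE; limma adjusted p = 0.999). In each of these 5 lists 0 genes had an unadjusted limma p under 0.05.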

How the data were processed

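Poly(A) RNA was sequenced from whole embryos, 3 libraries after eve and run dsRNA and 3 after water, grouped by sample title. The labels do not tell whether replicates came from separate injections, and p-values cover only the spread between them. Tools listed, without order or settings, in the submitters' processing notes are Bowtie2, TopHat2 (2.0.9), HTSeq and DESeq, with build dm3. The deposited values are a normalised signal: subtracting 1 left whole multiples of 1 step per library (100% of values within 0.01 read), that is, reads divided by a size factor with 1 added by the authors. Reads were recovered by that step. The 3 rows that name no gene, among them reads with a non-unique alignment (12.4% to 14.8% of listed reads) and ambiguous reads (0.72% to 0.75%), stayed out. There were 0 columns of other samples.

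Values were tested with limma-trend (limma 3.58.1, R 4.3.3; robust, no replicate block) on log2(normalised count + 1), with Benjamini-Hochberg adjustment over 9073 genes and a threshold of 0.05; a minimum mean of 1 removed 0 genes. The planned count-model alternatives were not run, and limma-voom on recovered reads was added after seeing the data. The fit was tested on simulated data with the same spread setting for all genes and no library standing apart. Changes were simulated only in well-counted genes. How the fit performs for scarce genes, or beside a library like water replicate 2, was not tested. Members and lists were chosen with earlier results of these data known, so no list was tested as a set; from each list, genes with an unadjusted p under 0.05 or, with none, the 2 highest were named, besides the 1 gene nearest in profile to each member and the 2 targets, and genes named otherwise were chosen after their values were seen. Symbols came from a RefSeq gene table (9027 of 9073 matched); robo3, bdl, beat-Ia, ItgaPS4, Drl-2 and nos were not analysed here. Positions and exon lengths were taken from the BDGP6 annotation, not from dm3; lengths merge all exons of a gene. Same-numbered libraries of the groups deviated together (correlations across genes of 0.24, 0.37 and 0.22, against −0.38 to 0.11 for other pairs). Values were first centred on the mean of their group, which by itself lowers the other pairs when same-numbered ones are positive. The labels state no pairing, so the main fit left the numbers out, and the replicate block was fitted as an alternative. Intervals on reads cover counting error only. No sequence is shown.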

Additional observations from a re-analysis of the deposited data

How the results depend on the processing

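Over 13 alternatives 0 of the 8 receptor genes was called in any, with a lowest adjusted p = 0.343 (kirre and rst, limma with library quality weights). With the replicate block 0 genes were called over all genes and 0 of the 8, and the block changed no other call. Quality weights called 5 genes (Taf2, btd, noc, nullo and tsg), none a member. With these weights 3 of the 8 (Fas3, kirre and rst) had an unadjusted limma p under 0.05, as did 13.5% of all genes. Leaving out 1 library in turn gave 0 to 4 called genes and 0 to 2 members without overlap (kirre without eve runt dsRNA replicate 3, where 29.4% of all genes had none, Fas2 and Ten-m without water replicate 1, where 14.4% had none, and Fas3 without water replicate 2, where 17.6% had none). The sign turned for rst without water replicate 1 (0.016) and without water replicate 3 (0.078), and for fra with quality weights (−0.051) and without water replicate 2 (−0.063), the ranges over single left-out libraries being −0.50 to 0.078 for rst and −0.063 to 0.16 for fra; the cause was not tested. The planned edgeR and DESeq2 alternatives were not run. A minimum of 5 CPM removed the 4 scarce genes, and the no-overlap count was 0 under TMM scaling. The guidance list's median, 0.06, was 0.0050 with quality weights and 0.087 with limma-voom, and 0.033 to 0.10 on leaving out 1 library; that of the cytoplasmic partners was −0.038 to 0.012. Leaving out 1 library gave medians of −0.34 to 0.70 for the partners and paralogues and −0.55 to 0.39 for the integrins, and quality weights gave −0.25 and −0.52, so that both signs occurred; the cause was not tested. Fas3, kirre and Fas2 rest on 2 to 10, 22 to 68 and 39 to 99 reads per library.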
